A study of Mus musculus with 6 samples.

Results

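The cytosolic ribosome is built from ribosomal RNA and ribosomal proteins, with gene names in Rpl for the large subunit and Rps for the small subunit. In mouse liver, 92 genes of the 17441 in the deposited table carry such a name, once the Rps6k kinases are left out. Of these, 46 encode large subunit proteins and 31 small subunit proteins, 77 core genes in all. Another 7 are paralogs, which encode a relative of a core protein (Rpl3l, Rpl7l1, Rpl10l, Rpl22l1, Rpl36al, Rpl39l and Rps27l). A further 7 are retrogenes, pseudogenes or other copies of a core gene (Rpl31-ps12, Rpl32l, Rpl34-ps1, Rpl37rt, Rps6-ps4, Rps23rg1 and Rps27rt), and Rps19bp1 encodes a binding partner of Rps19. Members were chosen by a rule on names that does not use their values, with earlier results of these data known.

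RNA-seq was done on 3 livers labelled iKO, a tamoxifen-inducible whole-body knockout of the kinase Nek7, and 3 livers titled Ctrl, here called WT. All 6 were taken 10 days after tamoxifen, which both groups had received. The labels give no age, sex, strain or Cre driver. They number the livers of a group without naming animals, so p-values measure the spread between these samples. Nek7 itself was not clearly lower in the livers labelled iKO, at 38.0 ± 10.6 CPM, against 44.1 ± 10.1 CPM in WT livers (SD, n = 3 each; log2 fold change -0.22 ± 0.23 SE, edgeR adjusted p = 0.541). CPM are counts scaled to library size, with TMM factors between libraries. The labels do not say which part of Nek7 is removed, so this count does not check the genotype, and iKO below means the label.

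Ribosomal protein mRNAs are among the most abundant messages of a cell, and each ribosome needs its proteins in about equal number. In mammals most of them begin with a cytosine followed by a run of pyrimidines, the terminal oligopyrimidine (TOP) start, through which mTOR signaling and the RNA-binding protein Larp1 set their translation and stability. Hepatocytes, which secrete much of the protein of blood plasma, hold many ribosomes. Free ribosomal proteins such as Rpl5 and Rpl11 also bind Mdm2 and so connect ribosome assembly to p53.

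The starts of several members are shown because the TOP start is the sequence feature the family is known for. Each line gives 20 bases before and 20 bases from an annotated RefSeq start (GRCm38.p6), 5′ to 3′ on the gene's strand. Capitals mark the pyrimidine run that opens the transcript. Where a gene has several annotated starts, a start with the run was printed first if there was any.
Rpl28, chr7:4792945-4792984, plus strand: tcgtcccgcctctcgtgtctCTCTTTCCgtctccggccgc
Rps10, chr17:27635225-27635264, minus strand: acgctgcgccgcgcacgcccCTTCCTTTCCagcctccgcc
Rps18, chr17:33955646-33955685, minus strand: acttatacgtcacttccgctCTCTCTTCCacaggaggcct
Rplp2, chr7:141447631-141447670, plus strand: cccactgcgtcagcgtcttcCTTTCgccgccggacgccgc
Rps6, chr4:86857348-86857387, minus strand: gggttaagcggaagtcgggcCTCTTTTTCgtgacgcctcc
Rps27, chr3:90213629-90213668, minus strand: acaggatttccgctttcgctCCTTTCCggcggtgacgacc
Rps27rt, chr9:114982720-114982759, minus strand: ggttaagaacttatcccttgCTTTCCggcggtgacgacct
Rps27l, chr9:66946066-66946105, plus strand: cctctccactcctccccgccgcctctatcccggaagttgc
Rpl22l1, chr3:28805488-28805527, plus strand: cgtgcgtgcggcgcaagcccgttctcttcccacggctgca
The annotated starts of the paralogs Rps27l and Rpl22l1 do not open with such a run. Rps27 and its copy Rps27rt share a run of 38 bases that begins at base 2 of the Rps27 start and base 1 of the Rps27rt start.

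Of the 70 members with a RefSeq start, 15 (21.4%) opened with C and at least 4 more pyrimidines at an annotated start. The same held for 813 of all 27025 genes in the table of starts (3.01%). Any annotated start of a gene could count. The run was looked for at those bases and on the gene's strand only, so a start annotated a few bases away is missed. The letters CTTTCC, on either strand and within 50 bases of the start, were present for 24 of the 70 members (34.3%) and for 10.3% of all genes. A match overlaps the TOP run in Rpl28, Rps10, Rps27 and Rps27rt, as the lines show. The 13 core genes with the run had a median log2 fold change of 0.76 between the groups described below. For the 44 without it at any annotated start the median was 0.68.

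Nearly every ribosomal protein gene read higher in iKO livers. All 77 core genes had a positive log2 fold change, with a median of 0.67. Over all 13160 tested genes the median was -0.02, and 48.3% were positive. The core values ran between 0.18 for Rps4x and 0.95 for Rpl28, or 1.13-fold and 1.93-fold in mean CPM. With edgeR's quasi-likelihood test and adjustment over all tested genes, 25 of the 77 rose (called: adjusted p below 0.05) and 0 fell. Across all genes 7.31% were called higher and 8.07% lower. For 65 of the 77 the 3 iKO livers all lay above the 3 WT livers, a pattern seen in 19.8% of all tested genes. It was seen in 40.5% of the shortest quintile by transcript length and in 65 of 79 oxidative phosphorylation subunits (82.3%).

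The core genes of the large and small subunit had median log2 fold changes of 0.68 and 0.67, a difference that was not tested. Among genes named Rpl, 17 of 51 tested rose and 0 fell, with a median log2 fold change of 0.67. Among genes named Rps, 11 of 35 rose and 1 fell, Rps23rg1, also with a median of 0.67. In TPM, the deposited level scaled by transcript length, core large subunit genes summed to 1.43 ± 0.0100 times the core small subunit genes in iKO livers and 1.44 ± 0.0163 times in WT livers (SD, n = 3 each).

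As a share of all counts, the 92 genes took 1.93%, 1.74% and 2.36% in iKO livers 1 to 3, against 1.42%, 1.31% and 1.61% in WT livers 1 to 3. The groups did not overlap, and the means were 2.01% ± 0.317 in iKO livers and 1.45% ± 0.155 in WT livers (SD, n = 3 each), a ratio of 1.39. On the TPM scale the ratio was smaller, 1.29, with 4.68% ± 0.799 in iKO livers and 3.63% ± 0.431 in WT livers (SD, n = 3 each).

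The calls were less stable than the direction. The median CPM over core genes was 256, 192 and 249 in iKO livers 1 to 3, against 153, 117 and 178 in WT livers 1 to 3. WT liver 2 was the lowest library for 77 of the 77 core genes, and iKO liver 1 the highest for 57, iKO liver 3 for 19 and iKO liver 2 for 1. Without WT liver 2, or without iKO liver 3, 0 core genes were called, and without iKO liver 2, 42 were. Over all genes, 228 of 13299 were called higher without WT liver 2 and 483 of 13392 without iKO liver 3. Without iKO liver 2 it was 922 of 13454. Without iKO liver 1 or without WT liver 1, 2 core genes were called, and without WT liver 3, 4, while all 77 log2 fold changes stayed positive in each of these 6 fits. Over all genes, 643 of 13463 were called higher without iKO liver 1 and 744 of 13458 without WT liver 1. Without WT liver 3 it was 416 of 13371. DESeq2 called 58 core genes higher, where it called 9.39% of all genes, and scaling by library totals alone left 5, where 2.7% of all genes were called higher. iKO liver 1 and WT liver 2 also had the lowest and highest TMM factor, 0.780 and 1.18. With both left out the core median was 0.42, with 77 of 77 positive and 0 called, where 169 of 13214 genes were called higher.

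**Figure D1:**
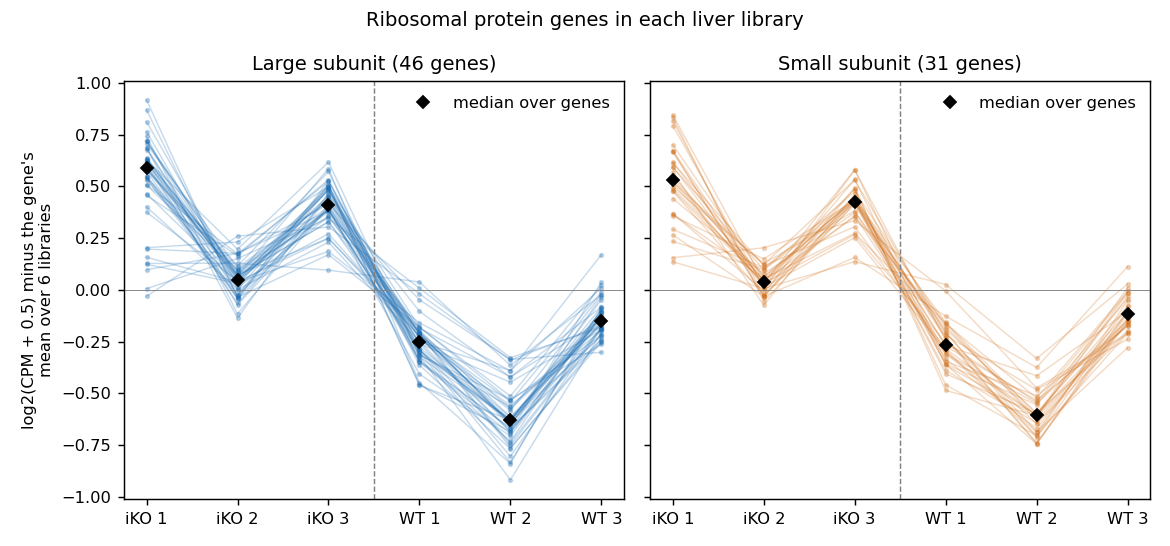
Each line is 1 core gene, as log2(CPM + 0.5) minus that gene's mean over the 6 liver libraries, with iKO left of the dashed line and WT right of it, and diamonds mark the median over genes. WT 2 is the lowest library for 77 of 77 genes, and iKO 1 the highest for 57.

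The members with the largest rises sat in both subunits. Rpl28, a large subunit protein found in eukaryotes, read 509, 262 and 378 CPM in iKO livers 1 to 3 and 209, 158 and 228 CPM in WT livers 1 to 3. Its log2 fold change was 0.95 ± 0.27 (SE; edgeR adjusted p = 0.0431), and iKO liver 2 lay close to WT liver 3. Rpl12, at the base of the stalk that recruits translation factors, read 334, 248 and 332 CPM in iKO livers against 173, 114 and 187 CPM in WT livers. All 3 iKO livers were well above the WT livers for this gene, with a log2 fold change of 0.94 ± 0.24 (SE; edgeR adjusted p = 0.0292). Rpl39, a very small protein that lines the exit tunnel for the growing chain, read 93.3, 59.3 and 85.0 CPM in iKO livers against 41.3, 31.3 and 53.1 CPM in WT livers. Its change was 0.92 ± 0.24 on the log2 scale (SE; edgeR adjusted p = 0.0318). Rpl36 rose by 0.87 ± 0.24 (log2, SE).

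Among core small subunit genes the largest rise was in Rps15, a protein of the subunit's head near the decoding site. It read 461, 264 and 360 CPM in iKO livers against 187, 157 and 222 CPM in WT livers, with a log2 fold change of 0.94 ± 0.25 (SE; edgeR adjusted p = 0.0335). The groups did not overlap, and iKO liver 1 stood highest. Rps28, which lies where the mRNA leaves the ribosome, read 175, 112 and 145 CPM in iKO livers against 80.9, 70.8 and 93.5 CPM in WT livers, a log2 fold change of 0.82 ± 0.21 (SE; edgeR adjusted p = 0.0306). Rps18 and Rps10, also proteins of the head, rose with log2 fold changes of 0.78 and 0.74.

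**Figure D2:**
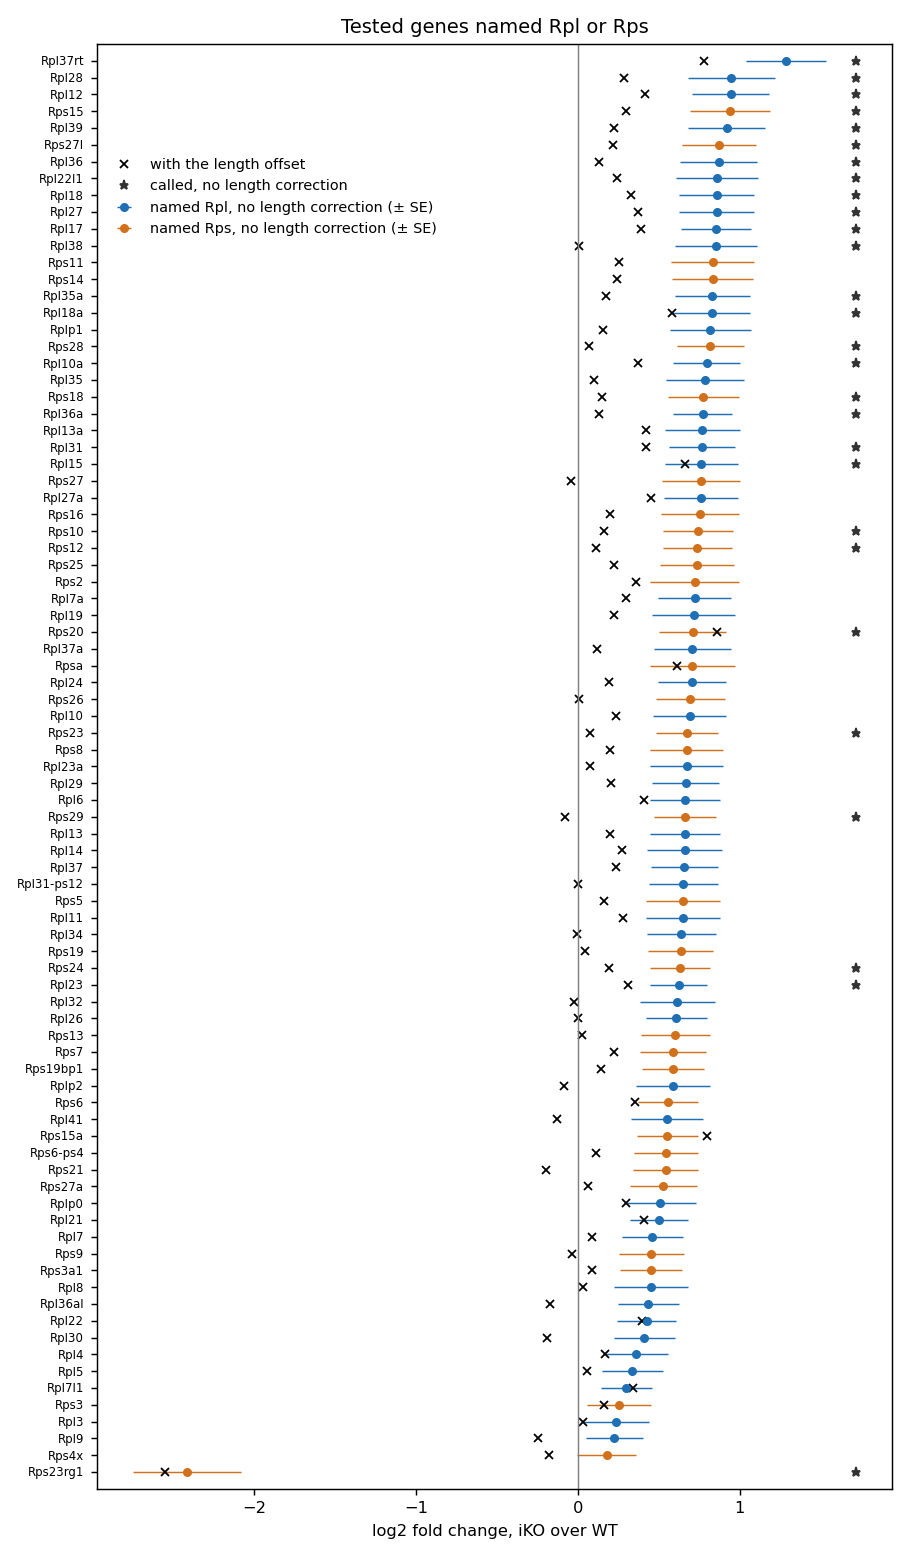
Each row is 1 of 85 of the 86 tested members, with the log2 fold change (iKO over WT) on the x axis as a point with its SE, in blue for genes named Rpl and orange for genes named Rps. Crosses give the value with the length offset, and stars at the right mark called genes; all points but Rps23rg1 lie above 0, and the crosses lie nearer to 0 for most genes.

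Among core genes the smallest differences were in Rps4x (0.18 ± 0.18), Rpl9 (0.22 ± 0.17), Rpl3 (0.24 ± 0.20), Rps3 (0.25 ± 0.20), Rpl5 (0.34 ± 0.19) and Rpl4 (0.36 ± 0.20), as log2 fold changes with SE, and none was called. Rps4x, an X-linked small subunit gene, read 230, 210 and 230 CPM in iKO livers against 213, 166 and 213 CPM in WT livers, so the groups overlapped. Rpl3, a large protein next to the peptidyl transferase centre, read 285, 262 and 290 CPM in iKO livers against 229, 195 and 287 CPM in WT livers. WT liver 3 reached the iKO range for Rpl3.

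Of the 77 core genes, 52 were not called, and 36 had an edgeR adjusted p from 0.05 to 0.1. Some of the genes not called are given by function, and no functional subset was compared with the other core genes. Of the stalk proteins, Rplp0 changed by 0.51 ± 0.22, Rplp1 by 0.82 ± 0.25 and Rplp2 by 0.59 ± 0.23 (log2 fold change, SE), with edgeR adjusted p between 0.0539 and 0.144. Rpl5 and Rpl11, which join the ribosome together with 5S RNA, gave 0.34 and 0.65. Rps27a, made as a fusion with ubiquitin, gave 0.53 (edgeR adjusted p = 0.108), and Rpsa, also known as the laminin receptor precursor, gave 0.71 (edgeR adjusted p = 0.0928). Ribosomal proteins whose names fall outside the family's naming were also measured: Fau gave 0.67 and Rack1 0.39, neither called.

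The most abundant members per length were Rps2, Rplp1, Rpl10 and Rpl41, with means over 6 livers of 1451, 1399, 1305 and 1207 TPM, and the core median was 512 TPM. Rps2, near the entry of the mRNA channel, averaged 1638 ± 165 TPM in iKO livers and 1264 ± 202 TPM in WT livers (SD, n = 3 each), and was not called (edgeR adjusted p = 0.0999). The lowest core genes were Rps6 at 15.0 TPM and Rps15a at 22.5 TPM. These low levels go with how reads were assigned and lengths annotated: Rps6 shares its sequence with Rps6-ps4, and Rps15a has an effective length of 5087 bases against a coding sequence of 390.

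Transcript length moved with the fold change. Effective length is the number of positions a fragment can start from, and ribosomal protein mRNAs are short, with a core median of 681 bases, against 2822 over all tested genes. Across 12995 genes with a length, Spearman's rho of log2 fold change with effective length was -0.35, and across the 77 core genes it was -0.40. These are descriptions over genes, which share the 6 libraries. Within libraries, the rho of a gene's deviation from its mean with length was -0.42, -0.070 and -0.20 in iKO livers 1 to 3, against 0.30, 0.43 and 0.091 in WT livers 1 to 3. Short genes other than ribosomal protein genes were higher in iKO livers too. In the shortest quintile of all tested genes 15.7% were called higher and 2.15% lower, and in the longest quintile 3.08% and 14.7%.

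At matched length the median of the core genes lay above that of other genes, by more as length grew. Between 200 and 400 bases the median log2 fold change was 0.79 for 8 core genes and 0.71 for 36 other genes. Between 400 and 600 bases it was 0.74 for 25 core genes and 0.63 for 170 others, and between 600 and 800 bases 0.68 for 16 and 0.51 for 268. Between 1000 and 1500 bases it was 0.56 for 9 core genes and 0.26 for 1318 others, and between 1500 and 2500 bases 0.50 for 5 and 0.08 for 3272. The 2 longest core genes, Rps15a and Rps20, had a median of 0.63, against -0.16 for 6055 others. By coding length, the median was 0.74 for 26 core genes and 0.38 for 532 other genes between 300 and 450 bases, 0.69 for 18 and 0.19 for 731 between 450 and 600 bases, and 0.66 for 16 and 0.14 for 1179 between 600 and 800 bases.

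Against genes of like length, the share of core genes called higher was nearer to the background than against all genes. Of other genes, 44.4% were called higher between 200 and 400 bases, 31.8% between 400 and 600, 20.5% between 600 and 800 and 20.9% between 800 and 1000. In the same 4 bins, 5 of 8, 10 of 25, 5 of 16 and 1 of 12 core genes were called higher.

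**Figure D3:**
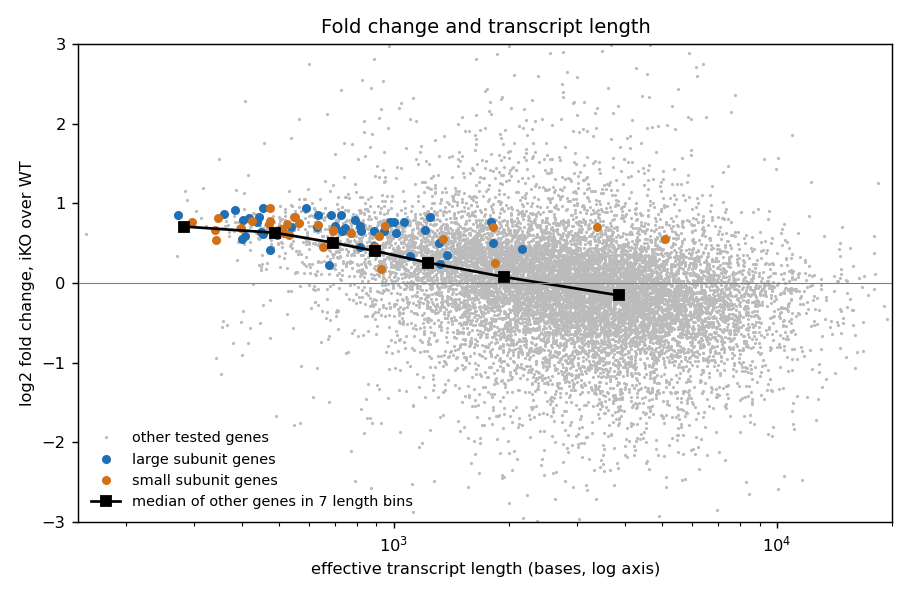
The log2 fold change (iKO over WT) is plotted over effective transcript length in bases on a log axis, with other tested genes in grey, core large subunit genes in blue, core small subunit genes in orange and the median of other genes in 7 length bins as black squares (genes beyond the axes are not drawn). The black line falls with length, and the ribosomal protein genes lie around it or above it, with medians above those of other genes in each bin.

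When the length trend of each library was removed by an offset in the edgeR model, the core median log2 fold change was 0.19, with 66 of 77 above 0, against 51.6% of all genes above 0. In that fit 2 core genes rose, Rps15a (0.79, edgeR adjusted p = 0.0401) and Rps20 (0.86, edgeR adjusted p = 0.0313), and 5.95% of all genes were called higher. Both have long effective lengths for their coding sequences: 5087 bases against 390 in Rps15a and 3397 against 357 in Rps20. The offset therefore compares them with long genes. Rpl28, Rpl12 and Rps15 were at 0.28, 0.41 and 0.30 after the offset, and none was called. With an offset by coding length the core median was 0.43, with 76 of 77 above 0 and 0 called.

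Reads of Y-linked genes were absent from WT livers 2 and 3 and present in the other 4, and the labels give no sex. A fit with such reads as a term gave a core median of 0.62, with 77 of 77 above 0 and 0 called, where 0.593% of all genes were called higher. That fit, and the 4 livers with Y-linked reads alone (median 0.63, 0 called), rest on WT liver 1 as the comparison with Y-linked reads. Markers of other liver cells also differed between the groups. Of the stellate cell markers, 6 of 10 were lower in iKO livers, with summed levels of 159 to 201 CPM in iKO livers against 326 to 566 CPM in WT livers. Of the Kupffer cell markers 6 of 10 were lower, with sums of 271 to 343 CPM in iKO livers against 389 to 726 CPM in WT livers, and of the endothelial markers 3 of 10, with sums of 79.3 to 165 CPM in iKO livers against 189 to 299 CPM in WT livers. Of the neutrophil markers 5 of 10 were lower, with sums of 22.8 to 48.1 CPM in iKO livers against 34.5 to 133 CPM in WT livers. Of the hepatocyte markers 1 of 8 was higher and 0 lower, with a median log2 fold change of 0.31. Hepatocyte markers summed to 108854 to 124915 CPM in iKO livers and 109678 to 121679 CPM in WT livers. Of the B cell markers 1 of 5 tested was lower, and 0 of the T and NK cell, erythroid and cholangiocyte markers were called. Across all tested genes 8.07% were called lower and 7.31% higher. With the Y-linked term, 3 stellate, 0 Kupffer, 0 endothelial and 1 neutrophil marker were called lower, where 106 of 13160 genes were. With the length offset, 5 stellate, 7 Kupffer, 0 endothelial and 6 neutrophil markers were called lower, where 720 of 12995 genes were. In whole liver, fewer cells of a type and less RNA per cell cannot be told apart, and the part of cell makeup in the ribosomal protein result was not tested.

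Rps23rg1 was the only member that fell, while its parent Rps23 rose. Rps23rg1 is a retrogene whose transcript carries a copy of the Rps23 message in the opposite orientation. It read 1.78, 1.51 and 1.00 CPM in iKO livers 1 to 3, against 6.62, 5.75 and 10.4 CPM in WT livers 1 to 3. Every iKO liver lay far below every WT liver, and the log2 fold change was -2.42 ± 0.33 (SE; edgeR adjusted p = 0.00295). Rps23 read 222, 171 and 204 CPM in iKO livers against 126, 107 and 141 CPM in WT livers, with a log2 fold change of 0.67 ± 0.19 (SE; edgeR adjusted p = 0.0430). The fall of Rps23rg1 was called in 22 of the 22 alternatives in which it was tested, with log2 fold changes of -2.85 to -1.71 and an adjusted p of at most 0.0448, the value with the Y-linked term.

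The stretch that pairs the 2 transcripts is shown because it is why their reads can be confused. In GENCODE M21 sequence, Rps23rg1 (mouse chromosome 8) matches Rps23 (mouse chromosome 13) over 418 bases at 99.522% identity, on the opposite strand. Capitals mark the start codon of the 143-codon Rps23 reading frame and its reverse complement.
Rps23, bases 1 to 40 of the reading frame: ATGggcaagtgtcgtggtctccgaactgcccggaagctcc
Rps23rg1, bases 1036 to 1075 of the transcript: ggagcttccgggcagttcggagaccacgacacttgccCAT
Expected counts of both genes were fractional in all 6 libraries, so their reads were split by the estimation. No source used here states a strand setting, and without one reads of the shared stretch cannot be told apart. The Rps23rg1 transcript also has sequence outside that stretch. As a share of the pair's CPM, Rps23rg1 took 0.805%, 0.869% and 0.480% in iKO livers 1 to 3, against 4.99%, 5.12% and 6.85% in WT livers 1 to 3.

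Rpl37rt, a retrogene copy of Rpl37 on another chromosome, had the largest positive log2 fold change of the family. It read 6.34, 7.80 and 6.79 CPM in iKO livers 1 to 3, against 2.16, 3.36 and 2.99 CPM in WT livers 1 to 3. Its log2 fold change was 1.29 ± 0.25 (SE; edgeR adjusted p = 0.0113), and of the 28 members called higher it was the only 1 that held in each of the 6 fits with a liver left out. It was called in 14 of 22 alternatives. The losses included the fits with the length offset (0.78, edgeR adjusted p = 0.109), with the Y-linked term (adjusted p = 0.0626), with library totals alone (0.0653) and without iKO liver 1 and WT liver 2 (0.0610), and the highest adjusted p was 0.215, with the length offset and the Y-linked term together. Rpl37 gave 0.66 and was not called. The copy matches Rpl37 at 99.709% over 344 bases, its counts were fractional in all 6 libraries, and its level is uncertain for that reason. As a share of the pair's CPM, Rpl37rt took 4.37%, 7.70% and 4.99% in iKO livers 1 to 3. In WT livers 1 to 3 it took 2.57%, 5.19% and 3.42%, so the groups overlapped. The pair summed to 127 ± 23.3 CPM in iKO livers and 79.1 ± 12.3 CPM in WT livers (SD, n = 3 each), a log2 ratio of 0.69.

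In other pairs the copy is so like its core gene that their reads were split by the estimation, so the sum of the pair is given. Neither Rps6-ps4 nor Rpl31-ps12 was called. Rps6-ps4 matches Rps6 at 100% over 750 bases and took 96.2% to 96.7% of the pair's CPM in every liver. The pair summed to 404 ± 38.6 CPM in iKO livers and 277 ± 39.7 CPM in WT livers (SD, n = 3 each), a log2 ratio of 0.54. Rpl31-ps12, at 98.933% over 375 bases, took 44.6% to 47.2% of its pair in iKO livers and 43.5% to 49.5% in WT livers. Rpl31 with Rpl31-ps12 summed to 219 ± 45.6 CPM in iKO livers and 134 ± 20.0 CPM in WT livers (SD, n = 3 each), a log2 ratio of 0.71.

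Of the paralogs, 2 of 4 tested rose, beside 7.31% of all genes. The 4 had a median effective length of 466 bases, and 31.8% of other genes between 400 and 600 bases were called higher. With the length offset 0 of the 4 were called, where 5.95% of all genes were called higher. With the Y-linked term 0 were called, where 0.593% of all genes were called higher. Rps27l, a p53 target gene related to Rps27, read 143, 81.8 and 103 CPM in iKO livers against 66.2, 49.3 and 63.6 CPM in WT livers. Its log2 fold change was 0.87 ± 0.23 (SE; edgeR adjusted p = 0.0335). Rpl22l1, which can stand in for Rpl22 in the ribosome, read 19.1, 17.7 and 26.3 CPM in iKO livers against 14.9, 7.86 and 12.1 CPM in WT livers, with a log2 fold change of 0.86 ± 0.25 (SE; edgeR adjusted p = 0.0478). Rpl36al gave 0.43 and Rpl7l1 0.30, neither called. Rps19bp1, the binding partner of Rps19, gave 0.59 and was not called.

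The balance of paralog and partner was compared in TPM for 4 pairs, with a 2-sided exact permutation test that cannot go below p = 0.1 in 3 against 3 livers. Rpl22l1 was at 94.8% ± 21.0 of Rpl22 in iKO livers and 69.7% ± 20.4 in WT livers (SD, n = 3 each; exact p = 0.3). These TPM levels rest on effective lengths of 438 bases for Rpl22l1 and 2154 for Rpl22. In CPM, Rpl22l1 and Rpl22 averaged 21.0 and 110 in iKO livers and 11.6 and 82.0 in WT livers. Rpl36al was at 90.1% ± 11.9 of Rpl36a in iKO livers and 113% ± 20.3 in WT livers (SD, n = 3 each; exact p = 0.2). Rps27l was at 35.2% ± 3.8 of Rps27 in iKO livers and 33.2% ± 6.07 in WT livers (SD, n = 3 each; exact p = 0.7). Rpl7l1 was at 7.26% ± 1.57 of Rpl7 in iKO livers and 8.01% ± 0.350 in WT livers (SD, n = 3 each; exact p = 0.4). Adjusted over the 4 pairs the permutation p ran from 0.533 to 0.7, and a design of this size could not have passed 0.05.

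**Figure D4:**
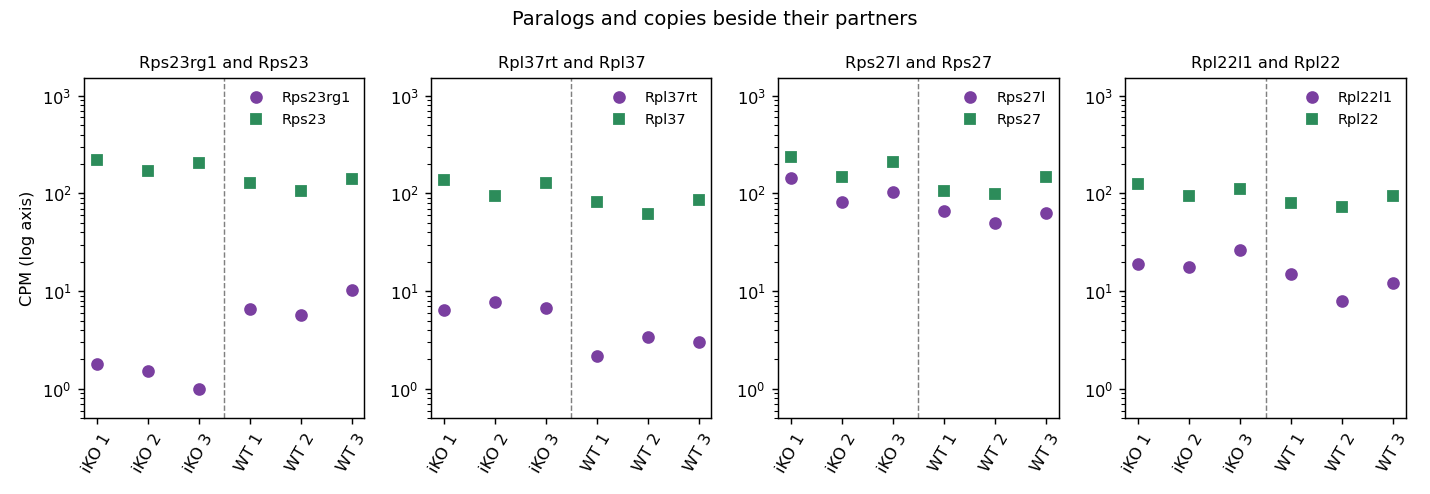
CPM on a log axis is shown for 4 pairs in each of the 6 livers, iKO left of the dashed line and WT right of it, with the copy or paralog as purple circles and its partner as green squares. Rps23rg1 lies at 1.00 to 1.78 CPM in iKO livers and 5.75 to 10.4 CPM in WT livers, while Rps23 lies higher in iKO livers.

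Of the 92 genes, 6 had too few reads to be tested. Rpl39l, known from testis, had 0 counts in all 6 libraries, where 3 counts, the limit a count of 0 allows, are 0.151 to 0.165 CPM by library total. Rpl10l, also known from testis, had 1, 0 and 1 counts in iKO livers and 0 in each WT liver. Rpl3l, the relative of Rpl3 in heart and skeletal muscle, had 4.76, 5.51 and 5.23 expected counts in iKO livers against 3.64, 6.06 and 2.12 in WT livers. Rps27rt had 11.61 expected counts in iKO liver 1 and in WT liver 1 and 0 in the other 4. Rpl32l and Rpl34-ps1 had 0 in the iKO livers and at most 3.82 expected counts in a WT liver.

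Other families of short transcripts were set beside the ribosomal proteins. Of the mitochondrial ribosomal protein genes 13 of 78 rose (16.7%), with a median log2 fold change of 0.37. Of the oxidative phosphorylation subunits 23 of 79 rose (29.1%), with a median of 0.66. Across all tested genes 7.31% were called higher, and 15.7% in the shortest length quintile. Proteasome subunits had a median of 0.22, with 1 of 38 higher and 1 lower. After the length offset the medians were 0.06, 0.12 and -0.03, in the same order, beside 0.19 for the core ribosomal proteins. The difference between these families was not tested.

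Among translation factors whose mRNAs are known for a TOP start, 3 of 18 rose and 0 fell, beside 7.31% and 8.07% of all genes: Eif3k (0.84), the elongation factor subunit Eef1d (0.80) and Btf3 (0.61), in log2 fold change. With the length offset 0 of the 18 were called, where 5.95% of all genes were called higher. A list of 26 genes held regulators of the translation of ribosomal protein mRNAs and the transcription factors Myc, Mycn and Max. Of these, 3 rose (11.5%) and 3 fell (11.5%), beside 7.31% and 8.07% of all genes. With the length offset 2 rose and 2 fell, where 773 of 12995 genes were called higher and 720 lower. With the Y-linked term 0 rose and 0 fell, where 78 of 13160 genes were called higher and 106 lower. Eif4ebp1, the mTOR target that blocks the cap-binding protein Eif4e, averaged 87.1 ± 16.1 CPM in iKO livers and 40.5 ± 5.13 CPM in WT livers (SD, n = 3 each; log2 fold change 1.10 ± 0.19 SE, edgeR adjusted p = 0.00747). The other rises were in Max, the partner of Myc (0.97), and Rheb, the activator of mTOR (0.56), which was not called with the length offset (edgeR adjusted p = 0.156). The falls were in Tsc1, the inhibitor of Rheb (-0.94 ± 0.14, edgeR adjusted p = 0.00473), Rptor, the mTOR complex scaffold (-0.74 ± 0.16; edgeR adjusted p = 0.101 with the length offset), and Mycn, at 0, 0 and 0.156 CPM in iKO livers against 1.27, 0.533 and 0.870 CPM in WT livers. Myc, an activator of ribosomal protein genes, read 136, 35.0 and 10.4 CPM in iKO livers against 5.84, 2.97 and 4.98 CPM in WT livers and was not called (edgeR adjusted p = 0.0915). Larp1 gave -0.33 and Mtor -0.09, neither called.

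Among 19 genes for ribosomal protein chaperones, assembly and surveillance, 3 rose (15.8%) and 0 fell, beside 7.31% and 8.07% of all genes. All 3 were called with the length offset, where 5.95% of all genes were called higher. With the Y-linked term 0 were called, where 0.593% of all genes were called higher. Rrs1, which in yeast helps to bring Rpl5 and Rpl11 into the large subunit, read 38.9, 32.4 and 27.9 CPM in iKO livers against 12.5, 12.6 and 8.22 CPM in WT livers. Its log2 fold change was 1.57 ± 0.21 (SE; edgeR adjusted p = 0.00252). Nob1, the endonuclease that finishes the RNA of the small subunit, gave 1.44 ± 0.19, and Grwd1, whose yeast counterpart is a chaperone of Rpl3, gave 1.12 ± 0.19 (log2, SE). Rpl3 was among the core genes that changed least.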

How the data were processed

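Liver RNA was sequenced in 3 iKO and 3 WT libraries. The submitters' processing notes name build mm9 and the tools RSEM 1.2.12, Bowtie2 2.2.5 and HISAT2 2.0.4, without their roles. The authors deposited expected counts of reads per gene, estimated without normalization, per the file headers. The authors also deposited FPKM and TPM, which are scaled by transcript length. No strand setting is stated.

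Rounded counts entered the robust quasi-likelihood F test of edgeR 4.0.16 in R 4.3.3, after filterByExpr and TMM, with Benjamini-Hochberg adjustment over 13160 genes and a threshold of 0.05. CPM of members use unrounded counts. Totals ran from 18139507 to 19911983 counts, so counting error is small except near 1 CPM. The limit for a count of 0 covers counting error only, while SE and SD include the spread between livers. The length offset is a lowess fit, span 0.3, on log2 effective length, for the 98.75% of genes with a length. The fitted value is a gene's log2 CPM in a library minus that gene's mean over the libraries. Coding lengths and copies come from GENCODE M21 (blastn 2.17.0), and printed starts from RefSeq GRCm38.p6. Other settings, DESeq2 1.42.0 and limma 3.58.1 among them, are compared at the end.

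Members and lists were chosen with earlier results of these data known. Named were, per subunit, the 6 largest called rises with a mean of at least 1 CPM, called members going the other way, the 4 most and 2 least abundant members, stalk genes, Rpsa, Rps27a, paralogs with partners, Nek7 and up to 3 called genes of each other list. Rps4x, Rpl9, Rps3, Rpl4, Rpl5, Rpl11, Rps23, Rps20, Rps15a, Rpl37, Rpl31, the other copies, Rps19bp1, Fau, Rack1, Myc, Larp1, Mtor, Rheb, Tsc1 and Rptor were chosen after their values were seen. A few genes are counted but not reported here by name.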

Additional observations from a re-analysis of the deposited data

How the results depend on the processing

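Without a length offset, the log2 fold change was positive for 77 of 77 core genes under the scaling factors, filter, block and Y-linked fits, with each library left out, without iKO 1 and WT 2, and with DESeq2 and limma-voom. It was positive for 76 under both FPKM fits and the coding-length offset, 72 under log2(TPM + 1), 66 with the length offset, 62 with that offset and the Y-linked term, and 60 with it and without iKO 1 and WT 2. The replicate numbers do not pair the livers (correlations of 0.20, 0.24 and 0.039), and with a replicate block 26 core genes were called higher, against 25 without it.

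Counts of calls are given as Rpl-named, Rps-named and core genes called higher, against 17, 11 and 25. They were 4, 2 and 5 with library totals alone, 37, 26 and 58 with DESeq2, 5, 2 and 5 with limma on log2(FPKM + 1), 5, 3 and 6 on log2(FPKM + 0.1), and 0, 0 and 0 on log2(TPM + 1). They were 0, 0 and 0 with the Y-linked term, with Y-linked libraries alone, with the coding-length offset, with iKO 1 and WT 2 both left out, and with the length offset joined to either the Y-linked term or those 2 libraries left out. With the length offset alone they were 0, 2 and 2. Leaving out each library gave 1 to 27, 0 to 19 and 0 to 42. Rps23rg1 has no coding length, so the coding-length offset gave 0 lower Rps-named genes.

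Over all genes, against 962 higher and 1062 lower, 78 and 106 were called with the Y-linked term, 66 and 77 with Y-linked libraries alone, 86 and 82 with that term and the length offset, 169 and 190 without iKO 1 and WT 2, and 148 and 113 without them and with the length offset. Higher calls were 355 with library totals alone, 421 and 427 with the FPKM fits, and 219 with TPM. Leaving out each library gave 228 to 922 higher and 263 to 1096 lower. Library totals alone moved the median of all genes to -0.20, with a core median of 0.49.

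Medians of the Rpl-named and Rps-named genes, 0.67 each, were 0.22 and 0.15 with the length offset, 0.18 and 0.12 with the Y-linked term added, 0.14 and 0.098 without iKO 1 and WT 2 under the offset, and 0.35 and 0.35 on log2(TPM + 1). Without those 2 libraries and no offset, the Rps-named median was 0.41. The change of Rps27l against Rps27 ran from -0.029 to 0.23 with a library left out.

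Signs turned for single genes. With the length offset, Nek7 gave 0.015, Rpl32 -0.026, Rpl36al -0.17, Rpl41 -0.13, Rplp2 -0.084, Rps27 -0.044, Rps4x -0.18 and Rpl9 -0.24. With the Y-linked term added, Rpl22l1 gave -0.077, Rpl32 -0.032, Rpl36al -0.44, Rpl41 -0.11, Rpl7 -0.074, Rplp2 -0.051, Rps4x -0.28, Rpl9 -0.36, Rpl4 -0.0021, Rpl5 -0.11 and Rpl31-ps12 -0.037. Under the length offset without iKO 1 and WT 2, Rpl3 gave -0.027, Rpl32 -0.10, Rpl36al -0.11, Rpl41 -0.17, Rplp2 -0.15, Rps26 -0.014, Rps27 -0.031, Rps4x -0.18, Rpl9 -0.20, Rpl31-ps12 -0.042, Fau -0.036 and Rack1 -0.023. Rpl41 gave -0.0087 with the coding-length offset. On log2(TPM + 1), Rpl3 gave -0.074, Rpl7l1 -0.030, Rps4x -0.14, Rpl9 -0.089, Rps3 -0.064 and Rpl5 -0.015, and Rps4x gave -0.0034 with both FPKM fits. The coding-length offset and the fits without iKO 1 and WT 2 were added after seeing the data. Causes of these changes were not tested. Depth limits only members near 1 CPM.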
